A study of Mus musculus with 2 samples.

Results

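Hematopoietic stem cells (HSCs) of the mouse are recognised by a small set of surface proteins and by transcription factors that keep them in an immature state. For this set, 9 genes were followed in leukemic stem cells (LSCs) from mice with experimentally induced chronic myeloid leukemia (CML). The surface markers were Ly6a, Cd34, Procr, Slamf1, Cd48, Tek and Thy1, and the transcription factors were Hlf and Mecom. The genes were taken by their symbols, and all 9 were among the 23284 gene symbols measured. They thus comprised 7 surface markers and 2 transcription factors.

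RNA-seq had been performed on WT and STAP-1 KO CML LSCs, with 1 library each. The donor LSK cells (lineage-, Sca-1+ and c-Kit+) came from C57BL/6J (Ly5.2) mice that were wild type or carried a targeted disruption of the STAP-1 locus, and all mice used were 8 to 14 weeks old. In both groups the donor cells had been transduced with a retrovirus that carried human p210 BCR-ABL together with green fluorescent protein (GFP), and had been injected with C57BL/6SJL bone marrow cells into lethally irradiated C57BL/6SJL (Ly5.1) recipients. On day 11 of the first bone marrow transplantation, GFP+ CD45.2+ LSK cells were collected by sorting. The leukemia is thus driven by a viral transgene in transplanted cells, and in the KO group STAP-1 is disrupted in all donor-derived cells. The sources used here do not give the number of mice behind each library. With 1 library per genotype, no difference below has a replicate check, no p-value is given, and mouse, sort and library preparation cannot be told apart from the genotype.

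In normal mouse bone marrow, the LSK gate holds stem cells together with multipotent progenitors, and further markers divide it. CD150, the product of Slamf1, and EPCR, the product of Procr, are kept by long-term stem cells, whereas CD48 and CD34 are carried mainly by multipotent progenitors and are low or absent on the most quiescent stem cells. Hlf and Mecom encode DNA-binding proteins that are highest in stem cells and decline as the cells mature.

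The promoter windows of 4 members are shown first, as examples of how much the CpG content at their start sites differed. RefSeq windows on GRCm38.p6, from 250 bases before to 50 bases after the annotated start, were at hand for 7 of the 9 genes, namely Cd48, Cd34, Slamf1, Procr, Tek, Mecom and Hlf. Slamf1 and Cd48 are neighbouring surface markers, and Mecom and Hlf are the transcription factors. The windows are printed 5′ to 3′ on the strand of the gene, with CG dinucleotides in capitals. They cover chr1:171766882-171767181 (+) for Slamf1, chr1:171681742-171682041 (+) for Cd48, chr3:30509710-30510009 (-) for the first of the Mecom windows and chr11:90390868-90391167 (-) for Hlf.
Slamf1: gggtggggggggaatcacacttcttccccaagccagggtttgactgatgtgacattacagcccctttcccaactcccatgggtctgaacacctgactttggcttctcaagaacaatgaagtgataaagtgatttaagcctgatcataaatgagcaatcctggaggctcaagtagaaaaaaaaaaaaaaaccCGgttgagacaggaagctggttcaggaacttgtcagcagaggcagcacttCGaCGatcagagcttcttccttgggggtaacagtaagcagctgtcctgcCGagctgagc
Cd48: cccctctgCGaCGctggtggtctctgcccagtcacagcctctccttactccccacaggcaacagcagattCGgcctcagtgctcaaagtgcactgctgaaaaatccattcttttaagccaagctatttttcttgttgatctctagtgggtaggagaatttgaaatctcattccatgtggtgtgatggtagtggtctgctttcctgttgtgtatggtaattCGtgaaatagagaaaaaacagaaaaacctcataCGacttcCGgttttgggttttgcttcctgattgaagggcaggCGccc
Mecom: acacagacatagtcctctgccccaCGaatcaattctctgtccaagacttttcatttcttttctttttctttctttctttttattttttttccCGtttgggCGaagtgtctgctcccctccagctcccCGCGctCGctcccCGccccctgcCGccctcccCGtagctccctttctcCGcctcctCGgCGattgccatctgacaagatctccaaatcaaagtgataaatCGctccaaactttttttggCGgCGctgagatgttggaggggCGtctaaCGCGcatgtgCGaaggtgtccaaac
Hlf: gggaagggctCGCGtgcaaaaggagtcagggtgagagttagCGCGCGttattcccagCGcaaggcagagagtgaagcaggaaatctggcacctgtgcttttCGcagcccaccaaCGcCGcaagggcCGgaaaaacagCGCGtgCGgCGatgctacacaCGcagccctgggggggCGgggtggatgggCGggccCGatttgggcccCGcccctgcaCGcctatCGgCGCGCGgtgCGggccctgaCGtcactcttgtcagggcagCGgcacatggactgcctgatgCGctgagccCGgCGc

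The Hlf window held 30 CG dinucleotides at a GC content of 67.3%, more CG dinucleotides than 88.3% of the 32851 RefSeq windows of the same length. In the Mecom window there were 19, more than in 71.9% of all windows, and the second Mecom window of the table held 9. The surface marker windows held 13 in Procr, 7 each in Cd48 and Cd34, 4 in Slamf1 and 3 in Tek, beside a median of 7 over all windows. All 3 transcription factor windows were thus above the median, the second Mecom window only slightly and below Procr, while 4 of the 5 surface markers with a window were at or below it. On both strands 3 motifs were searched, none of which contains another. The STAT motif TTCNNNGAA was in none of the member windows and in 8.3% of all windows. The GATA motif AGATAA was found in Tek (11.2% of all windows), and the RUNX motif TGTGGT was found in Cd48 (16.8% of all windows). These matches describe letters within the windows only.

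Values are given as FPKM, fragment numbers divided by transcript length and by library size, so that levels can be set side by side between genes. The files state no read numbers. From the steps between low FPKM values, effective depths of 7370000 reads (WT) and 10420000 reads (STAP-1 KO) were estimated, and a read number and an exact 95% Poisson interval were derived for each gene. Such intervals cover counting error only. The targeted gene, Stap1, was at 62.0 FPKM in WT and at 0.309 FPKM in STAP-1 KO. Ptprc, which encodes the CD45 antigen of the sort, was at 107 and 38.2 FPKM, and Kit, which encodes c-Kit, was at 468 and 30.1 FPKM. All 3 antigens named by the gate, Ly6a, Kit and Ptprc, thus had at least 2-fold less RNA in STAP-1 KO. The libraries also differed with transcript length, since the median log2 ratio of STAP-1 KO to WT was 0.51 in the tenth of genes with the shortest transcripts and -0.98 in the tenth with the longest. For this reason ratios below are accompanied by a value corrected for length and GC content where it bears on the result. In bulk samples of this kind, fewer cells of a type and less RNA per cell cannot be told apart.

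The levels of the markers were then compared with each other within each library. All 9 genes were above 0.1 FPKM in both libraries, but their levels spanned a wide range. In the WT library Cd48, the progenitor-type SLAM receptor, was the highest at 525 FPKM (95% interval 508 to 542), rank 128 of all genes. Ly6a and Cd34 followed at 285 FPKM (271 to 299) and 281 FPKM (274 to 288), and their intervals overlapped. A wide step then separated these 3 genes from the rest, as Cd34 was 69.0 times as high as the next gene, Mecom. Mecom stood at 4.08 FPKM, Slamf1 at 3.39, Procr at 2.98, Thy1 at 1.75 and Tek at 1.17, and each of these overlapped with its neighbour in this order. Hlf was lowest at 0.318 FPKM (0.173 to 0.555). Slamf1, Procr, Mecom and Hlf, kept by or highest in stem cells, were thus all in the low range of this bulk library, and Cd48 and Cd34 in the high range. Without a normal stem cell library beside them, levels of different genes do not tell the share of stem cells.

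The same order was not found in the STAP-1 KO library. Cd48 was again highest, at 907 FPKM (889 to 926), and it took rank 42 of all genes. Cd34 was at 194 FPKM and now stood above Ly6a at 106 FPKM, without overlap of their intervals. Slamf1 came next at 8.67 FPKM, followed by Procr at 5.45 and Thy1 at 4.63, which overlapped. Mecom, which led the low range in WT, stood below them at 1.56 FPKM and overlapped with Tek at 1.18 FPKM. Hlf was again lowest at 0.140 FPKM. Slamf1, below Mecom in WT with overlapping intervals, was thus above it in STAP-1 KO without overlap.

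**Figure D1:**
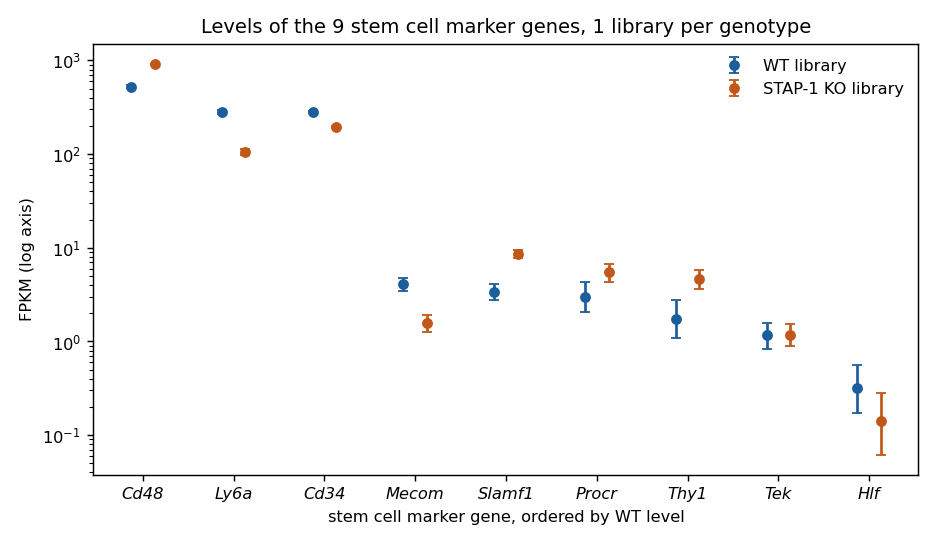
FPKM (log axis) of the 9 stem cell marker genes in the WT and the STAP-1 KO library, ordered by WT level, with bars for the 95% counting intervals of the estimated reads. Cd48, Ly6a and Cd34 lie above 100 FPKM in both libraries, all other markers lie below 10 FPKM, and Slamf1 moves above Mecom in the STAP-1 KO library.

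Between the libraries, 3 of the 9 genes were at least 2-fold lower in STAP-1 KO (Ly6a, Mecom and Hlf), 2 were at least 2-fold higher (Slamf1 and Thy1) and 4 did not pass the cut-off (Cd34, Procr, Cd48 and Tek). Among all 12507 genes with at least 0.1 FPKM in both libraries, 22.9% were at least 2-fold lower and 12.3% at least 2-fold higher. The members' shares of 33.3% and 22.2% differ from this background by about 1 gene each and are not read as a property of the set. The median log2 ratio was 0.01 over the 9 genes and 0.40 over the 8 of them whose mean reached 1 FPKM (all but Hlf), beside -0.04 over the 10974 genes with such a mean. With so few genes, the median turned on whether Hlf was included. The genes are described one by one, first the surface markers and then the transcription factors.

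**Figure D2:**
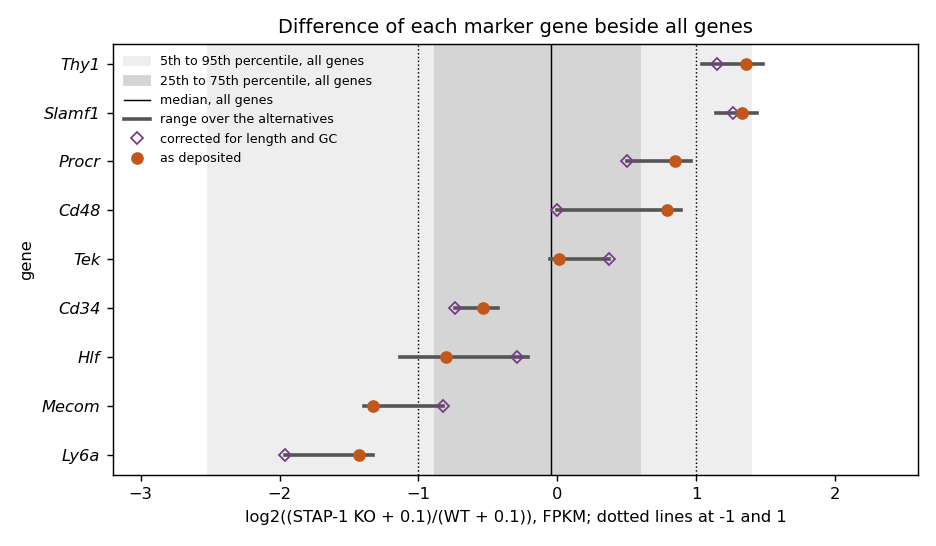
Log2((STAP-1 KO + 0.1)/(WT + 0.1)) of each marker gene as deposited (filled circles), after correction for transcript length and GC content (diamonds), and as the range over the alternative settings (lines), on grey bands for the percentiles of all genes whose mean reached 1 FPKM. Ly6a and Mecom lie beyond -1 as deposited, Slamf1 and Thy1 lie beyond 1 with and without the correction, and Cd48 moves from 0.79 to 0.00.

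Ly6a encodes Sca-1, a GPI-anchored protein of the Ly6 family and the S of the LSK gate. Its level was 285 FPKM in WT and 106 FPKM in STAP-1 KO, from about 1559 and 817 estimated reads. The WT level was 2.70 times as high (95% counting interval 2.48 to 2.94), a log2 ratio of -1.43, and short genes like Ly6a had a median of 0.48, so that after correction the log2 ratio was -1.96. Although both libraries were sorted as Sca-1+, Ly6a RNA was thus lower in STAP-1 KO than in WT by a larger margin relative to genes of its length. Of its 881 windows of 75 bases, the read length, 2.38% occurred also in its relatives Ly6c1 or Ly6i, and how the authors' counting assigned such reads was not tested.

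The remaining genes of the Ly6 family were on both sides. Ly6e, a broadly expressed member, was at 1696 FPKM in WT and 1166 FPKM in STAP-1 KO, lower like Ly6a but not past the cut-off (corrected log2 ratio -0.65). Ly6c2, the antigen Ly-6C of monocytes, was at 20.5 and 98.0 FPKM and was at least 2-fold higher in STAP-1 KO, as was Ly6d, a marker of early B-lineage commitment, at 9.11 and 18.4 FPKM. Ly6k was at 0.236 and 1.01 FPKM, from about 1.01 and 6.12 reads, with a ratio of 4.30 (0.515 to 195) that includes 1. Ly6c1 was at 0.624 and 0.894 FPKM, Ly6i was listed at 0 in WT and at 0.998 FPKM in STAP-1 KO, and Ly6f and Ly6h were listed at 0 in both. Of the 6 family members above the floor in both libraries, Ly6a was the 1 gene that was at least 2-fold lower, and 3 were at least 2-fold higher, of which Ly6d fell short of 2-fold after correction (log2 ratio 0.69). The shares over all genes were 22.9% lower and 12.3% higher.

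Cd34 encodes a sialomucin of stem and progenitor cells and of endothelium. It was at 281 FPKM in WT and 194 FPKM in STAP-1 KO, and the WT level was 1.45 times as high (1.40 to 1.51, log2 ratio -0.54). With about 5909 and 5755 reads this is 1 of the most precisely counted markers, and it stayed short of the 2-fold cut-off. Its exons share 148 of 7290 bases with Gm16897 on the opposite strand, and the library kit does not mark strand. Podxl, a sialomucin relative, was at 51.3 and 25.6 FPKM and was at least 2-fold lower, while Podxl2 was listed at 0 in WT and at 0.107 FPKM in STAP-1 KO. After correction the log2 ratio was -0.74 for Cd34 and -0.43 for Podxl, neither past 2-fold.

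Procr encodes the endothelial protein C receptor (EPCR). It was at 2.98 FPKM in WT and 5.45 FPKM in STAP-1 KO, 1.83 times as high (1.18 to 2.83, log2 ratio 0.85) from about 30.7 and 79.3 reads. This did not pass the cut-off, and with the reads counted on its shortest coding transcript the interval ran from 0.754 to 6.21 and included 1. Its ligand gene Proc was listed at 0 in both libraries. Thbd, which encodes thrombomodulin, was at 1.18 and 0.490 FPKM, and F2r, which encodes the thrombin receptor PAR1, was at 492 and 155 FPKM. Both were at least 2-fold lower in STAP-1 KO, the opposite side from Procr.

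Slamf1 encodes CD150, the SLAM receptor by which long-term stem cells are separated from progenitors. It was at 3.39 FPKM in WT and 8.67 FPKM in STAP-1 KO, from about 105 and 380 reads. The STAP-1 KO level was 2.56 times as high (2.06 to 3.21), a log2 ratio of 1.33, and the corrected value was 1.27. Among the log2 ratios of the 10974 genes whose mean reached 1 FPKM it took percentile 94.3. Of its 4346 windows of 75 bases, 1.06% also occurred in other genes, namely Dnajb14, Churc1, Dld and Gm15541.

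Cd48 encodes a GPI-anchored ligand of CD244 and CD2 and lies 61869 bases from Slamf1 on chromosome 1. It was at 525 FPKM in WT and 907 FPKM in STAP-1 KO, 1.73 times as high (1.66 to 1.80, log2 ratio 0.79), from about 3768 and 9209 reads. Genes of like length had a median log2 ratio of 0.52, and after correction for length and GC content its log2 ratio was 0.00. The neighbours Cd48 and Slamf1 were thus on the same side as deposited, but only Slamf1 kept its distance from genes of like length and GC content.

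Other SLAM receptors were on both sides. Cd244, the receptor of CD48, was at 23.7 and 13.4 FPKM and did not pass the cut-off. Cd84 was at 26.5 and 10.3 FPKM, Slamf7 at 2.37 and 0.760 FPKM and Slamf8 at 2.69 and 1.04 FPKM, and these 3 genes were at least 2-fold lower in STAP-1 KO. Ly9 was at 7.80 and 12.0 FPKM and Slamf6 at 0.537 and 0.641 FPKM, neither past the cut-off. Slamf9 was at 0.142 and 1.12 FPKM, from about 1.16 and 12.9 reads, a ratio of 7.88 with an interval of 1.38 to 391. In all, 3 of the 9 SLAM genes (33.3%) were at least 2-fold lower and 2 (22.2%) at least 2-fold higher, beside 22.9% and 12.3% of all genes. These counts are not read as a property of the gene cluster on chromosome 1.

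**Figure D3:**
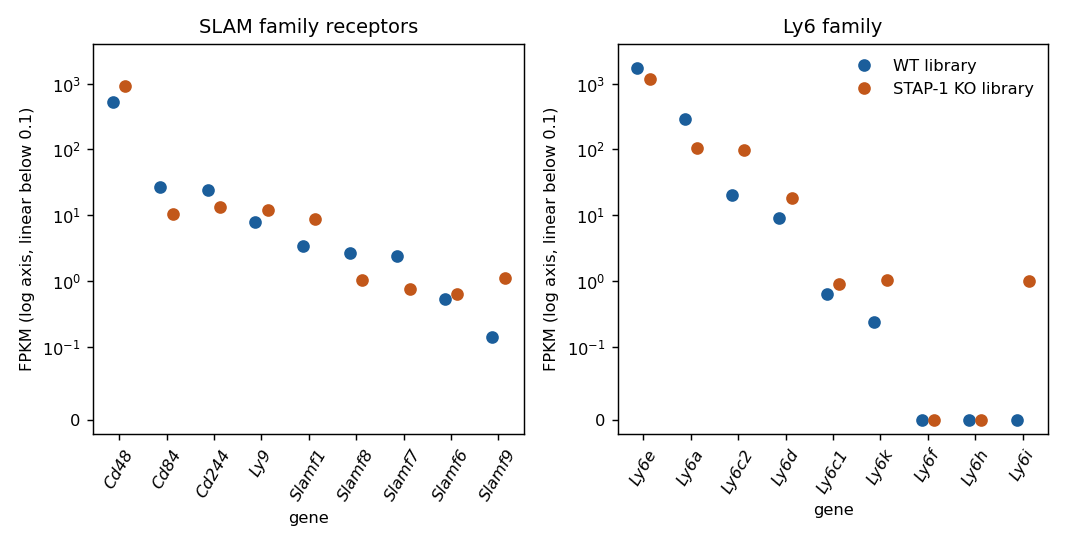
FPKM in the WT and the STAP-1 KO library (log axis, linear below 0.1) of the SLAM receptor genes and of the Ly6 genes. Ly6a lies at 285 and 106 FPKM while Ly6c2 lies at 20.5 and 98.0 FPKM, and among the SLAM genes Slamf1 is higher and Cd84 and Slamf7 are lower in STAP-1 KO.

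Tek encodes TIE2, the angiopoietin receptor that holds stem cells in quiescence. It was at 1.17 FPKM in WT and 1.18 FPKM in STAP-1 KO, a ratio of 1.01 (0.665 to 1.59) from about 38.3 and 54.7 reads. The difference was not detectable at this depth, and the interval leaves room for values up to 1.59-fold. Its ligand gene Angpt1 was at 24.9 and 51.1 FPKM and was at least 2-fold higher in STAP-1 KO, with a ratio of 2.06 (1.89 to 2.24). Angpt2 was listed at 0 in both libraries and Angpt4 at 0 and 0.0723 FPKM. Tie1, the related receptor, was at 2.29 and 3.38 FPKM, and Ptprb, a phosphatase that acts on TIE2, was listed at 0 in both. As deposited, Angpt1 was the gene of this pathway past the cut-off, whereas after correction its log2 ratio was 0.88 and that of Tie1, 0.54 as deposited, was 1.05.

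Thy1 encodes CD90, a small GPI-anchored protein that stem cells carry at a low level and T cells at a high one. It was at 1.75 FPKM in WT and 4.63 FPKM in STAP-1 KO, from about 19.6 and 73.5 reads, and was 2.65 times as high (1.56 to 4.47, log2 ratio 1.36, corrected 1.15). Its interval excluded 1 with reads counted on the longest transcript and included it (0.685 to 14.5) with the shortest coding transcript. T lymphoid markers are given beside Thy1. Of 8 such genes 4 were at least 2-fold higher and 1 at least 2-fold lower, beside 12.3% and 22.9% of all genes. Their summed level was 16.5 FPKM in WT and 50.5 FPKM in STAP-1 KO. Most of this sum was Lck at 11.8 and 41.9 FPKM, with Cd3g at 1.80 and 5.04 FPKM (corrected log2 ratio 0.87, short of 2-fold), while Cd3e and Cd3d were low in both, with Cd3e at 0.869 and 1.09 FPKM and Cd3d at 0.713 and 0.681 FPKM. No gene of this list was at 0 in either library. The lineage mixture of the sort included antibodies against CD3e and CD8, and the part of T cells in the Thy1 result was not tested.

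Mecom encodes the zinc finger protein EVI1, which is needed for stem cell self-renewal. It was at 4.08 FPKM in WT and 1.56 FPKM in STAP-1 KO, from about 165 and 89.2 reads, and the WT level was 2.61 times as high (2.01 to 3.43, log2 ratio -1.33). Genes with transcripts of like length had a median log2 ratio of -0.59, and the corrected value was -0.82, short of 2-fold. With 17 annotated transcripts, the reads behind these values depend on the isoform, and counted on the shortest coding transcript the interval of the STAP-1 KO to WT ratio (0.032 to 2.47) included 1. Its exons share 81 of 12427 bases with the antisense gene Mecomos, and 0.125% of its 5618 windows of 75 bases occur there.

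Prdm16, the closest relative of Mecom and also a stem cell regulator, was on the opposite side. It was at 0.0973 FPKM in WT, under the floor of 0.1 FPKM, and at 1.18 FPKM in STAP-1 KO, from about 6.02 and 103 reads, a ratio of 12.1 (5.39 to 33.9). The corepressor genes whose products bind these proteins did not pass the cut-off, with Ctbp1 at 143 and 77.8 FPKM, Ctbp2 at 16.1 and 13.2 FPKM and Suv39h1 at 42.3 and 69.3 FPKM.

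Hlf encodes a PAR bZIP factor of stem cells. It was at 0.318 FPKM in WT and 0.140 FPKM in STAP-1 KO, which stand for about 12.7 and 7.92 reads. The WT level was 2.27 times as high with an interval of 0.883 to 6.39 that includes 1, so a difference was not detectable at this depth although the ratio passed the cut-off. The log2 ratio with the pseudocount was -0.80, and it was -0.29 after correction, since genes of like length had a median of -0.59. Tef, a relative, was at 23.1 and 4.22 FPKM and the WT level was 5.48 times as high (4.67 to 6.50). Nfil3, a bZIP repressor at the same sites, was at 35.1 and 13.3 FPKM and was also at least 2-fold lower in STAP-1 KO, with a ratio of 2.63 (2.25 to 3.08). Dbp, also a relative, was at 0.468 and 1.49 FPKM, the reverse direction, from about 5.61 and 25.3 reads. As deposited, both transcription factors of the set were at least 2-fold lower in STAP-1 KO, and neither was after the correction.

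The markers were then set beside further stem and progenitor genes, whose lists hold the members' functional partners. Genes named here as past the cut-off were picked after their values were seen where they are not among the 3 with the widest ratio of a list. Of 14 other surface molecules of stem and progenitor cells, 5 (35.7%) were at least 2-fold lower and 3 (21.4%) at least 2-fold higher, beside 22.9% and 12.3% of all genes. The median log2 ratio was -0.35 (-0.65 over those whose mean reached 5 FPKM). The lower ones were Kit, the integrin gene Itga2b (CD41) at 123 and 32.5 FPKM, Cd93 at 9.17 and 3.48 FPKM (corrected log2 ratio -0.53, short of 2-fold) and the tetraspanin genes Cd82 at 139 and 41.4 FPKM and Cd81 at 548 and 233 FPKM. The higher ones were Cd27, a TNF receptor of multipotent progenitors, at 4.39 and 46.1 FPKM, and the junction molecules Esam at 3.73 and 12.0 FPKM and Jam3 at 0.378 and 2.01 FPKM. Genes of this list thus lay on both sides of the WT level.

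For the other stem cell transcription factors, 22 of 24 genes were above the floor in both libraries, and 17 of them (77.3%) did not pass the cut-off, beside 64.8% of all genes. Only 2 were at least 2-fold lower, Gata2 at 409 and 55.2 FPKM and Tal1 at 17.9 and 6.94 FPKM. Lmo2, which bridges these factors on DNA, was at 82.6 and 227 FPKM, Mycn at 9.66 and 31.6 FPKM and Hoxa9 at 0.452 and 2.73 FPKM, and all 3 were at least 2-fold higher. Factors of the same network such as Fli1 at 54.7 and 48.6 FPKM, Meis1 at 41.7 and 36.8 FPKM and Gfi1b at 55.8 and 59.4 FPKM did not pass the cut-off. The median log2 ratio was 0.17 over the 20 genes whose mean reached 1 FPKM and -0.17 over those whose mean reached 5 FPKM. The sign for this list thus depends on the genes of low level.

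Of 23 genes known to be enriched in stem cells, 22 were measured and 20 were above the floor in both libraries. Among these 20, 6 were at least 2-fold lower and 6 at least 2-fold higher. The 2 under the floor were Neo1 at 0.489 and 0.0404 FPKM and Robo4 at 0 and 0.0823 FPKM. The median log2 ratio was 0.11 over the 18 genes whose mean reached 1 FPKM (0.54 over those whose mean reached 5 FPKM). The widest ratios were those of Sult1a1, at 0.247 FPKM in STAP-1 KO and 28.4 times as high in WT, of the keratin gene Krt18 at 1.12 and 8.90 FPKM and of Myct1 at 0.882 and 5.72 FPKM. For 12 genes of early progenitors the counts were 2 lower and 5 higher, with a median of 0.03 (-0.12 over those whose mean reached 5 FPKM). The shares of higher genes, 30.0% and 41.7%, stand beside 12.3% of all genes, and those of lower genes, 30.0% and 16.7%, beside 22.9%. Among the higher ones, Dntt, the terminal transferase of lymphoid-primed progenitors, was at 1.79 and 20.4 FPKM, Csf3r, the G-CSF receptor gene, at 1.51 and 13.3 FPKM, Cebpa at 0.768 and 4.36 FPKM and Csf1r at 1.56 and 5.31 FPKM. Il7r at 11.6 and 1.56 FPKM and Irf8 at 45.4 and 19.6 FPKM were lower. None of these 4 lists had a median beyond 2-fold in either direction.

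**Figure D4:**
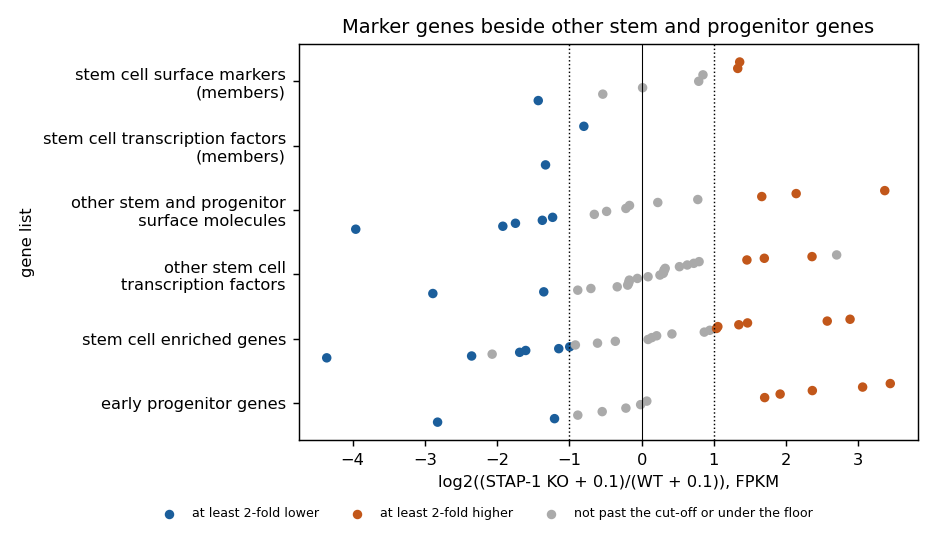
Log2((STAP-1 KO + 0.1)/(WT + 0.1)) of each gene in the marker lists and in 4 lists of other stem and progenitor genes, where each point is a gene and dotted lines stand at 2-fold. In every list but that of Hlf and Mecom, genes lie on both sides of 0, with medians of -0.35 for other surface molecules and 0.17 for other transcription factors.

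The marker levels were read beside lists for other cell types, some of which carry antigens of the lineage mixture used in the sort. For each of these lists the shares over all genes are 22.9% lower and 12.3% higher. Mast cell markers were the most abundant, with a summed level of 56692 FPKM in WT, 8.73% of all FPKM, and 5924 FPKM in STAP-1 KO. All 13 were at least 2-fold lower, among them Tpsab1 at 430 and 8.74 FPKM, Tpsb2 at 7016 and 185 FPKM and Il1rl1 at 521 and 23.3 FPKM, and Kit and Gata2 are also members of this list. The primary granule genes of neutrophil precursors stood on the opposite side, with 5 of 5 at least 2-fold higher and a summed level of 564 and 4623 FPKM. Ms4a3 was at 41.5 and 460 FPKM, Prtn3 at 57.4 and 525 FPKM and Ctsg at 104 and 841 FPKM. Mature neutrophil markers were at 400 and 158 FPKM in sum with 6 of 7 lower, eosinophil markers at 10.8 and 79.0 FPKM with 3 of 5 higher and 1 lower, and erythroid markers at 2602 and 1293 FPKM with 4 of 8 lower and 1 higher. The monocyte and macrophage list was at 196 and 150 FPKM in sum with 3 of 7 genes lower and 2 higher, and the megakaryocyte list was at 218 and 137 FPKM with 3 of 7 lower and 1 higher. None of the genes of the mast cell and primary granule lists that are in the files was at 0 in either library. The part of these cell types in the member values was not tested.

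Endothelial cells also carry Cd34, Tek and Procr. Their summed markers were at 78.3 FPKM in WT and 94.9 FPKM in STAP-1 KO, with 4 of 7 genes higher and 1 lower, and most of the sum came from Pecam1 at 46.9 and 23.4 FPKM and Egfl7 at 22.3 and 49.1 FPKM, which blood cells also express. Some genes of the list were near 0, with Cdh5 at 0.0706 and 0 FPKM, Cldn5 at 0 and 0.158 FPKM and Robo4 at 0 and 0.0823 FPKM. Others were not, among them Esam at 3.73 and 12.0 FPKM (at least 2-fold higher) and Tie1 at 2.29 and 3.38 FPKM (not past the cut-off). The cells had been sorted as CD45.2+, and the part of endothelial cells in the Cd34 value was not tested. B lymphoid markers summed to 4.28 and 19.3 FPKM, of which Cd79b made up 3.10 and 17.8 FPKM, with 2 of 3 genes above the floor higher, and Ebf1 and Pax5 were listed at 0 in both libraries. Of the lineage antigens that the sort had removed, Cd8a was at 0.369 and 0.132 FPKM and Itgam at 1.82 and 1.56 FPKM.

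**Figure D5:**
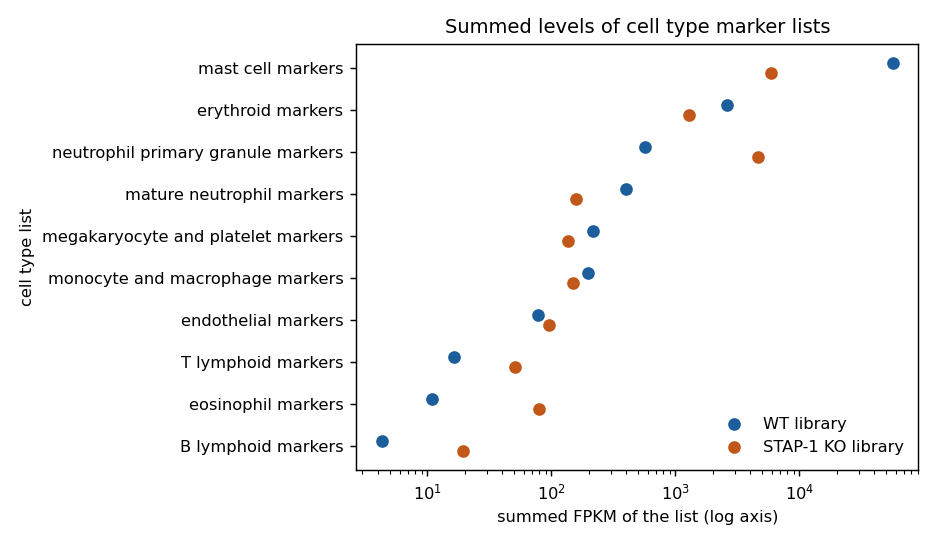
Summed FPKM (log axis) of each cell type marker list in the WT and the STAP-1 KO library. Mast cell markers reach 56692 FPKM in WT and 5924 FPKM in STAP-1 KO, primary granule markers lie at 564 and 4623 FPKM, and B lymphoid, T lymphoid and endothelial lists stay below 100 FPKM.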

How the data were processed

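The RNA-seq values were made by the authors, who amplified the cDNA with a SMART-Seq v4 kit, prepared Nextera XT libraries, sequenced single reads of 75 bases, mapped them to mm10 with TopHat 2.0.13 and Bowtie2 2.2.3 and deposited the FPKM values given by Cuffnorm of Cufflinks 2.2.1. The gene annotation they used is not given in the sources used here. Symbols were matched to GENCODE M21 (GRCm38), 20911 as written and 1900 by older symbols, which left 473 without a match. A gene was counted as lower or higher when the libraries differed at least 2-fold and each held 0.1 FPKM or more, and log2 ratios used a pseudocount of 0.1 FPKM, which understates the change of low genes. Estimated reads are FPKM times the longest transcript less 212 bases times the effective depth, with exact Poisson intervals per library and exact conditional binomial intervals of the ratio, at 95% and for counting error only. The correction subtracted the median log2 ratio of genes in 20 bins of transcript length and then in 20 bins of GC content. No test was possible with 1 library per genotype.

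The members and the gene lists were chosen with earlier results of these data known. The text names all members, Stap1, Kit and Ptprc, every gene of the families and pathways of the members, and of each other list up to 3 genes whose mean reached 1 FPKM, with the widest log2 ratio at a pseudocount of 1. Further genes of these lists that passed the cut-off or were near 0, and Fli1, Meis1 and Gfi1b, were named after their values were seen. Some genes that this rule selects are not reported here. Python 3.11.15, numpy 2.4.6, pandas 2.3.3, scipy 1.17.1 and matplotlib 3.10.9 were used, and the estimates were tested on simulated data.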

Additional observations from a re-analysis of the deposited data

How the results depend on the processing

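The direction of each member was kept under all alternatives with the exception of Tek, whose log2 ratio ran from -0.05 to 0.37, and Cd48, which came to 0.00 once transcript length and GC content were corrected for. The log2 ratios ran from -1.96 to -1.33 for Ly6a, from -1.39 to -0.82 for Mecom, from -1.13 to -0.21 for Hlf, from -0.74 to -0.43 for Cd34, from 1.14 to 1.44 for Slamf1, from 1.04 to 1.48 for Thy1 and from 0.50 to 0.96 for Procr. Under 4 other scalings of the libraries 3 members were lower and 2 higher, as with the deposited values. After the correction, 1 member was at least 2-fold lower (Ly6a) and 2 higher, beside 17.43% and 10.58% of all genes. At a 4-fold cut-off 0 members were lower and 0 higher, beside 8.56% and 2.40% of all genes. With a 1.5-fold cut-off 3 members were lower and 4 higher, beside 32.79% and 25.59% of all genes. With a floor of 1 FPKM 2 members were lower, since Hlf no longer entered, beside 19.32% of all genes. The median log2 ratio over all 9 members ran from -0.05 to 0.11, and it was 0.40 over the 8 whose mean reached 1 FPKM. Counted on the shortest coding transcript, 16 of the estimated read numbers moved beyond their interval and 2 did not, and the ratio intervals of Mecom, Procr and Thy1 then included 1. Depth limits Hlf, Tek, Procr and Thy1 most on the longest transcript, and Hlf, Thy1, Mecom and Procr on the shortest coding one. No paired analysis was possible because each genotype has 1 library and the result comes from no test.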
